A study of Mus musculus with 14 samples.

Results

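Cd14 and the surface Toll-like receptors were read as 9 genes in RNA sequencing of mouse tumors: the co-receptor genes Cd14 and Ly96, the receptor genes Tlr4, Tlr2, Tlr1 and Tlr6, the adaptor gene Myd88, and the kinase genes Irak4 and Irak3. A gene was taken when its symbol matched one of these names in both deposited tables, over all 14 libraries, and all 9 were found among the 12924 genes of each table and passed the filter on low values. The tables list them under the gene identifiers 12475 (Cd14), 17087 (Ly96), 21898 (Tlr4), 24088 (Tlr2), 21897 (Tlr1), 21899 (Tlr6), 17874 (Myd88), 266632 (Irak4) and 73914 (Irak3). Tumors had been grown from Lewis lung carcinoma cells, a mouse lung cancer line, placed under the skin of the flank of C57BL/6 hosts and collected on day 14. The hosts were p110g-/- mice, without PI3K gamma, the catalytic subunit that Pik3cg encodes, or wild-type (WT) mice. In each genotype, libraries were made from 1000000 sorted CD11b+Gr1- cells, named tumor-associated macrophages (TAM) in the labels (4 p110g-/- and 4 WT), or from 30 mg of whole tumor (3 p110g-/- and 3 WT). The deletion is described for the host mice with no restriction to a cell type, and the sources used here do not say which part of Pik3cg was removed. The labels do not tie libraries to animals, and p-values therefore reflect only how far these libraries spread, which may be technical.

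CD14 is a surface protein with no signalling tail of its own that hands bacterial lipopolysaccharide to TLR4 and its partner MD-2, the product of Ly96, and also assists TLR2. TLR2 recognises bacterial lipopeptides as a heterodimer with TLR1 or with TLR6. After ligand binding these receptors recruit MyD88, which gathers the kinase IRAK4, while IRAK-M, the product of Irak3, restrains the signal in macrophages.

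The start regions of 4 of the genes are shown because the Tlr1 and Tlr6 genes, whose products pair with TLR2, lie on the same chromosome and differed from Tlr2 in direction in whole tumors, and because Myd88 is the adaptor that all of these receptors share. RefSeq windows of the GRCm38.p6 build, another build than that of the libraries, were matched for 6 of the 9 members in 9 windows (Tlr1, Tlr2, Tlr6, Myd88, Irak3 and Irak4). Each sequence is the 250 bases before a listed start of the gene, 5′ to 3′ on the minus strand. Capitals mark the matches to 5 short patterns searched on both strands.
Tlr1, chr5:64933559-64933808: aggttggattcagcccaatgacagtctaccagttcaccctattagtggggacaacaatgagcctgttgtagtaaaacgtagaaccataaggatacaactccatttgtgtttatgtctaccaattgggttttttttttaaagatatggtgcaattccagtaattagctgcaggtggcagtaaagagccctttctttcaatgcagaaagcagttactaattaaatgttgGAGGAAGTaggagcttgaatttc
Tlr6, chr5:64959167-64959416: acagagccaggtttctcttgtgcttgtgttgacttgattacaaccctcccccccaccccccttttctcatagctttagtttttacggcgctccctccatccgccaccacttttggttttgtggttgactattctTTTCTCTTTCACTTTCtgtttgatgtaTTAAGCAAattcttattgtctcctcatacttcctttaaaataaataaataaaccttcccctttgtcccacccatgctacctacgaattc
Tlr2, chr3:83841609-83841858: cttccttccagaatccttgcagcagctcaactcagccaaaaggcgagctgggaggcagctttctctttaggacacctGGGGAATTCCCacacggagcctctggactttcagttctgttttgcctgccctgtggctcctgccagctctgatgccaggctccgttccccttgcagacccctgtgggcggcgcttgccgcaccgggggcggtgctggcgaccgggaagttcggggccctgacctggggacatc
Myd88, chr9:119340019-119340268: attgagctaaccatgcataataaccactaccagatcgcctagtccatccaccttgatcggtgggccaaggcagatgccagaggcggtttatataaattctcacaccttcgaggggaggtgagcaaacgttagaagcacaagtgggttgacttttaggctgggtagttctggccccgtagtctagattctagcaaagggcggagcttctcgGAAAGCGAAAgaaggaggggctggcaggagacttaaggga
The printed Tlr1 window held the PU.1 pattern GAGGAAGT, whose first base lay 23 bases before the start. The other Tlr1 window, which is not printed, held no match to any of the 5 patterns. The Tlr6 window held overlapping matches to the interferon-stimulated pattern (GAAA, any 2 bases, GAAA), read on the opposite strand, at 116 and 110 bases before the start. It also held the C/EBP pattern TTGCNNAA, likewise read on the opposite strand, at 89. The Tlr2 window held overlapping matches to the NF-kB pattern (GGG, any 5 bases, CC) at 173 and 172 bases before the start, and the Myd88 window held the interferon-stimulated pattern at 40. The NF-kB pattern was also in windows that are not printed, at 99 in the other Tlr6 window, at 26 and 25 in an Irak3 window and at 37 in the Irak4 window. None of the 9 windows held the AP-1 pattern TGANTCA. Among all 32851 windows of that length, 2.44% held the PU.1 pattern, 2.98% the interferon-stimulated pattern, 9.56% the C/EBP pattern, 6.75% the AP-1 pattern and 45.8% the NF-kB pattern. A match is a description of letters and not evidence of binding.

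Normalized counts, the authors' library-scaled and rounded values, summed to 33479847 to 38153438 per p110g-/- TAM library and 33248294 to 34352435 per WT TAM library, and to 25883561 to 27219340 per p110g-/- tumor and 27256480 to 27586429 per WT tumor. The lowest value of any member in any library was 163, where counting alone gives a coefficient of variation of up to 7.83%. Pik3cg read 1756 ± 526 in p110g-/- TAM and 3510 ± 767 in WT TAM (SD, n = 4 each), and 313 ± 92.2 in p110g-/- tumors and 543 ± 66 in WT tumors (SD, n = 3 each), with no overlap in either table. In counts per 1000000 of the library total (CPM), the 11 measured macrophage markers summed to 8420 to 12740 CPM in p110g-/- TAM and 10260 to 13120 CPM in WT TAM, against 1875 to 2819 CPM in p110g-/- tumors and 1763 to 2440 CPM in WT tumors, so the sorted cells carried the RNA their label names. The 9 neutrophil markers summed to 73.7 to 143 CPM in p110g-/- TAM and 61.8 to 161 CPM in WT TAM. Among them, S100a8 and S100a9 had TAM averages of 1.61 to 5.66 CPM. Both lay below the tumors of the same genotype, as did Cxcr2, Retnlg and Hdc, and Ltf in p110g-/- only. Csf3r (37.5 CPM in p110g-/- TAM and 36.4 CPM in WT TAM) overlapped the tumors in both genotypes. So did Il1r2 (40.5 CPM in p110g-/- TAM and 24.3 CPM in WT TAM) and Mmp8 (12.35 CPM in p110g-/- TAM and 18.6 CPM in WT TAM). Mitochondrial genes took 2.73%, 3.21%, 9.01% and 14.4% of p110g-/- TAM libraries 1 to 4, and 2.51%, 3.06%, 7.70% and 9.59% of WT TAM libraries 1 to 4, so in both genotypes libraries 3 and 4 stood apart from 1 and 2. Deviations from the group means also ran together in same-numbered TAM libraries, and about as closely between libraries 3 and 4 of the 2 genotypes. For that reason the result with a block for the number stands beside a TAM value where it changes the call.

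In sorted macrophages, Cd14 was the member that set the genotypes apart. Its level was 54199, 44362, 67571 and 68025 normalized counts in p110g-/- TAM libraries 1 to 4, and 26774, 15278, 13844 and 12870 in WT TAM libraries 1 to 4. Each p110g-/- library lay above each WT library, the lowest p110g-/- value being 1.66 times the highest WT value. The means were 58539 ± 11422 in p110g-/- TAM and 17192 ± 6464 in WT TAM (SD, n = 4 each), a ratio of 3.405. Among the same-numbered libraries the p110g-/- value was 2.02, 2.90, 4.88 and 5.29 times the WT value for numbers 1 to 4. On the log2(normalized count + 1) scale the difference was 1.81 (SE 0.25), which did not pass limma's test without a block (adjusted p = 0.0621) and passed it with the number as a block (SE 0.23, adjusted p = 0.0135). WT library 1 had the highest WT level, and without it the difference was 2.05 with limma's adjusted p at 0.00815 and no block. With any other single library left out and no block, the difference was 1.69 to 1.94 and limma's adjusted p 0.0728 to 0.253. The blocked call was lost without number 2, 3 or 4, at limma adjusted p-values of 0.0846, 0.0624 and 0.0557.

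Of the 9 members, 0 were called by limma without a block, where 0.112% of the 12475 genes tested were called (14 genes, and 732 at an unadjusted p under 0.05). With the block Cd14 alone was called, where 2.5% of all genes were called (312 genes), and the other 8 had limma adjusted p-values of 0.113 to 0.940. Cd14 was also the only member whose libraries did not overlap between genotypes, which held for 4.3% of the genes tested and, in the higher direction, for 2.37%. The authors' deposited table gives each gene a value headed pp, from 0 to 1, which the sources used here do not explain. In the authors' deposited table it was 0.995 for Cd14 in TAM, 0.534 for Myd88, 0.149 for Tlr1, 0.1 for Tlr6 and 0 for the other 5 members, and it exceeded 0.95 for 2.26% of the genes tested.

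**Figure D1:**
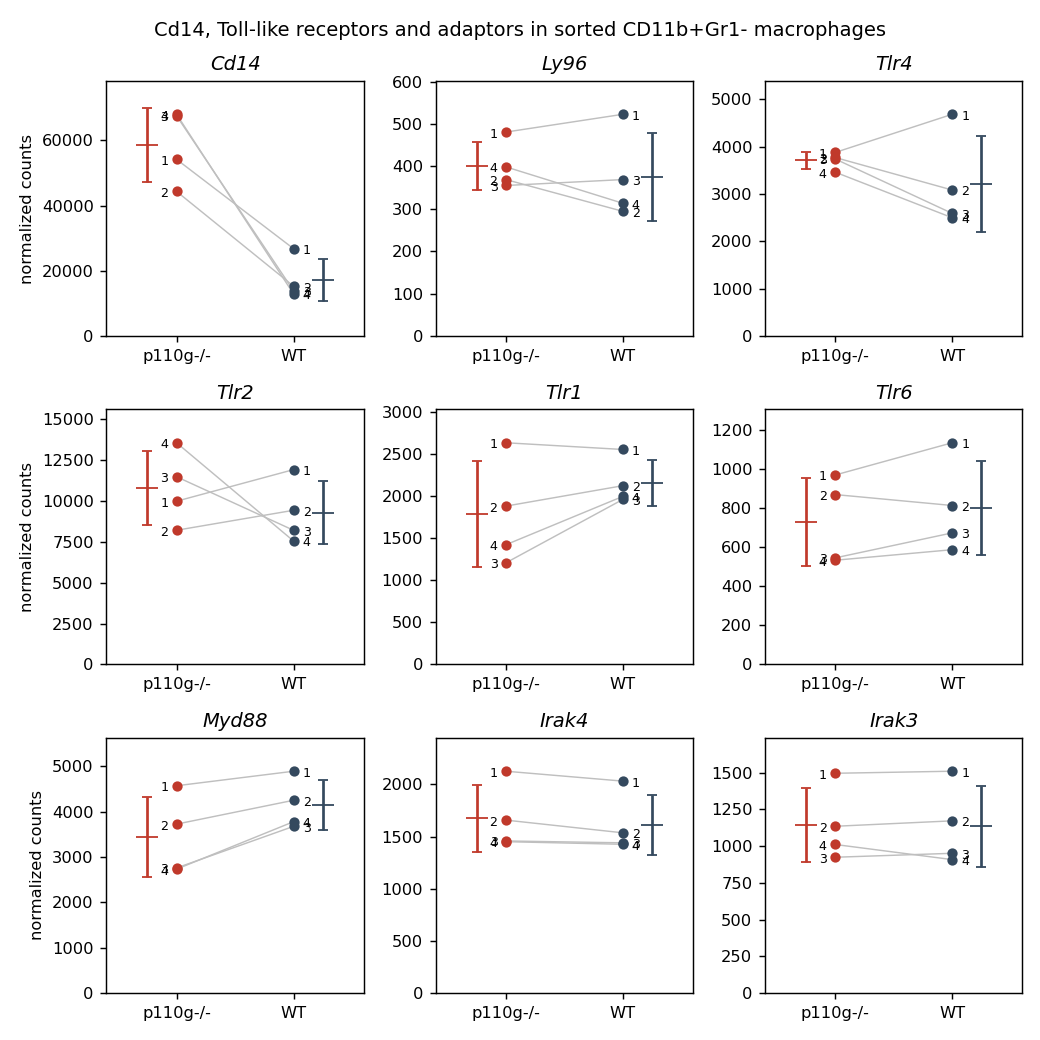
Normalized counts of the 9 genes in sorted CD11b+Gr1- macrophages, with p110g-/- on the left and WT on the right of each panel. Points are libraries labelled by number, grey lines join equal numbers, and bars give the mean ± SD (n = 4 each). The Cd14 points of p110g-/- lie between 44362 and 68025, all above those of WT (12870 to 26774), and in the other 8 panels the genotypes overlap.

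The partners of CD14 in lipopolysaccharide sensing had smaller differences and overlapping libraries. Tlr4 read 3879, 3773, 3742 and 3463 normalized counts in p110g-/- TAM, and 4686, 3085, 2591 and 2499 in WT TAM. The p110g-/- libraries were close together and lay inside the WT range, so the genotypes overlapped. The difference was 0.25 (SE 0.19, limma adjusted p = 0.999). Ly96 read 481, 369, 355 and 399 in p110g-/- TAM, and 523, 294, 369 and 313 in WT TAM. Its libraries overlapped as well, and the difference was 0.12 (SE 0.20, limma adjusted p = 0.999).

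Within a library the ratio of normalized counts of Cd14 to Tlr4 was 14.0, 11.8, 18.1 and 19.6 in p110g-/- TAM, and 5.71, 4.95, 5.34 and 5.15 in WT TAM. The WT ratios were nearly constant although both genes were highest in WT library 1, and all 4 p110g-/- ratios lay above them. Only 0.593% of genes tested had a ratio to Tlr4 that was higher in p110g-/- TAM without overlap. The ratio of Cd14 to Ly96 was 113 to 190 in p110g-/- TAM and 37.5 to 52.0 in WT TAM, where 0.882% of genes had such a ratio to Ly96. The ratio of Cd14 to Tlr2, added after the values were seen, was 5.43, 5.41, 5.89 and 5.02 in p110g-/- TAM, and 2.25, 1.62, 1.69 and 1.71 in WT TAM, where 0.585% of genes had such a ratio to Tlr2. Ratios of this kind do not depend on how a library was scaled. They share the Cd14 values and are not separate results.

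The lipopeptide receptors and the signalling proteins showed overlapping libraries in sorted macrophages. Tlr2 read 9984, 8208, 11481 and 13560 normalized counts in p110g-/- TAM, and 11918, 9430, 8205 and 7546 in WT TAM. Its p110g-/- libraries 3 and 4 were the high ones and its WT libraries 3 and 4 the low ones, so same-numbered libraries differed in opposite directions. The difference over all 4 was 0.22 (SE 0.19, limma adjusted p = 0.999). Tlr1 read 2634, 1881, 1207 and 1422 in p110g-/- TAM, and 2554, 2124, 1961 and 1997 in WT TAM. Here p110g-/- libraries 3 and 4 were the low ones, and the difference was -0.33 (SE 0.23, limma adjusted p = 0.999). Tlr6 read 969, 869, 545 and 533 in p110g-/- TAM, and 1134, 813, 673 and 587 in WT TAM, with libraries 3 and 4 low in both genotypes and a difference of -0.14 (SE 0.27, limma adjusted p = 0.999).

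Myd88 read 4573, 3726, 2758 and 2732 normalized counts in p110g-/- TAM, and 4894, 4253, 3677 and 3780 in WT TAM. The groups overlapped, but each p110g-/- library lay below the WT library of its number, as did those of 15.3% of the genes tested. The difference of -0.29 (SE 0.18) had a limma adjusted p of 0.999 without a block and 0.113 with it. Irak4 ran the other way by a small step, at 2127, 1658, 1458 and 1451 in p110g-/- TAM, and 2032, 1536, 1440 and 1426 in WT TAM. All 4 numbers were higher in p110g-/-, as for 11.2% of genes, with a difference of 0.05 (SE 0.16, limma adjusted p = 0.999). Irak3 read 1496, 1135, 924 and 1011 in p110g-/- TAM, and 1510, 1172, 951 and 908 in WT TAM, a difference of 0.01 (SE 0.20, limma adjusted p = 0.999). The ratio of the inhibitor Irak3 to Irak4 was 0.634 to 0.703 in p110g-/- TAM and 0.637 to 0.763 in WT TAM.

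Because the TAM libraries split by number, the members were also compared within the numbers 1 and 2 and within the numbers 3 and 4, at 2 libraries a group. Cd14 was higher in both subsets, by 1.28 (SE 0.32) in numbers 1 and 2 and by 2.35 (SE 0.08) in numbers 3 and 4. In limma without a block, 0 of the 9 members and 0 of all genes were called in numbers 1 and 2, where the adjusted p of Cd14 was 1, and 0.0646 with a block. In numbers 3 and 4, 5 of the 9 members were called, where 11.3% of all genes were called (1428 of 12629). These were Cd14, Tlr2 at 0.67 (SE 0.09, limma adjusted p = 0.0024) and Tlr4 at 0.50 (SE 0.07, limma adjusted p = 0.00276), all higher in p110g-/-, with Tlr1 at -0.59 (SE 0.09, limma adjusted p = 0.00446) and Myd88 at -0.44 (SE 0.06, limma adjusted p = 0.00316), both lower. In numbers 1 and 2 the differences were -0.23 for Tlr2, 0.01 for Tlr4, -0.07 for Tlr1 and -0.14 for Myd88. Libraries 3 and 4 also correlated across numbers (0.777 for p110g-/- 3 with WT 4, and 0.704 for p110g-/- 4 with WT 3). The small SEs and p-values in numbers 3 and 4 therefore reflect how close 2 libraries of a group lay. Whether the subsets differ from each other was not tested.

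Other RNA in the sort moved with these numbers. The 8 fibroblast markers summed to 21.7, 266, 1250 and 825 CPM in p110g-/- TAM libraries 1 to 4, and to 77.8, 806, 1505 and 1646 CPM in WT TAM libraries 1 to 4. These sums were lower in p110g-/- in every same-numbered pair. In whole tumors they were 7796 to 8319 CPM in p110g-/- and 7335 to 8226 CPM in WT. In TAM, 0 of the 8 markers had positive differences, and their median was -0.90. Limma called 0 of the 8 without a block and 1 lower with it. The 3 measured carcinoma markers summed to 3.31 to 85.4 CPM in p110g-/- TAM and 5.07 to 87.6 CPM in WT TAM. The 7 measured monocyte markers summed to 2603, 1302, 781 and 813 CPM in p110g-/- TAM libraries 1 to 4, and to 2640, 1483, 1242 and 1144 CPM in WT TAM libraries 1 to 4, lower in p110g-/- in every same-numbered pair. Their median difference was -0.39, and 2 of the 7 had positive differences. Limma called 0 without a block and 3 lower with it, where 1.49% of all genes were called lower. These were Ly6c2 (-1.99), Ms4a4c (-1.61) and Plac8 (-1.30). The 15 immediate-early and dissociation stress genes summed to 7456, 6194, 4894 and 5716 CPM in p110g-/- TAM, and to 4794, 4983, 2969 and 3215 CPM in WT TAM. All 15 had positive differences, of which limma called 0 without a block and 6 with it, where 1.01% of all genes were called higher. No gene of these lists was at 0 in all libraries of a group, and their part in the Cd14 result was not tested.

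The 5 genes whose profile over the 8 TAM libraries was nearest to that of Cd14 were Nt5e, Pdcd1lg2, Hr, Slc4a11 and Klrb1b, with root mean square distances of 0.27 to 0.36 on the log2 scale after each gene was centred, among 10598 genes. Nt5e, which encodes the surface 5′-nucleotidase CD73, read 5715, 5227, 6336 and 5766 normalized counts in p110g-/- TAM, and 4060, 1971, 1998 and 1496 in WT TAM. As for Cd14, WT library 1 was the highest of the WT libraries. Klrb1b, a C-type lectin gene of the natural killer receptor family, read 1832, 1314, 1555 and 1616 in p110g-/- TAM, and 629, 586, 543 and 594 in WT TAM. The nearest member was Tlr4 at rank 382 and at a distance of 0.81, with Tlr2 close behind at 0.81. The genes nearest to Tlr2 over the same libraries were Pvr, Gpr132, Dusp16, Cd86 and Samd8, at distances of 0.08 to 0.11. A nearest profile is a description over libraries that share a sort and a genotype.

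**Figure D2:**
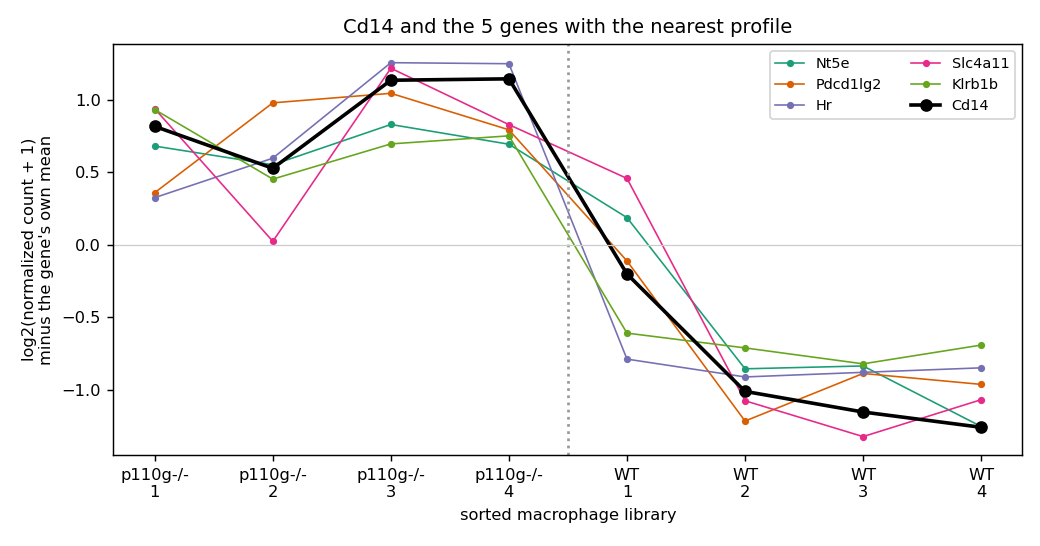
Profiles of Cd14 (black) and of the 5 genes nearest to it over the sorted macrophage libraries, as log2(normalized count + 1) minus each gene's own mean. The p110g-/- libraries are on the left of the dotted line and the WT libraries on the right, and all 6 genes lie above their mean in p110g-/- libraries, while all but Nt5e and Slc4a11 lie below it in all 4 WT libraries.

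In whole tumors the estimated Cd14 difference was smaller than in TAM, while the estimates for Tlr1, Tlr2, Tlr6, Irak3 and Irak4 were larger in size than theirs in TAM. Without a block, limma's test of the difference between the effects, given below, called 0 of the 9 members. With a block in the TAM it called Cd14 and Tlr1 only. In bulk tissue such as a whole tumor, fewer cells of a type and less RNA per cell cannot be told apart. Cd14 read 18198, 12754 and 17287 normalized counts in p110g-/- tumors, and 9653, 13214 and 14408 in WT tumors. The genotypes overlapped, since p110g-/- tumor 2 lay below WT tumors 2 and 3. The means were 16080 ± 2916 in p110g-/- tumors and 12425 ± 2474 in WT tumors (SD, n = 3 each), a difference of 0.38 (SE 0.18, limma adjusted p = 0.221). Limma called 0 of the 9 members in whole tumors, where 4.35% of the 12717 genes tested were called (553 genes, and 3332 at an unadjusted p under 0.05).

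Tlr2 had the largest negative difference of the members. It read 1606, 2088 and 2460 normalized counts in p110g-/- tumors, and 2409, 3067 and 3327 in WT tumors. Only p110g-/- tumor 3 reached into the WT range, above WT tumor 1. The means were 2051 ± 428 in p110g-/- tumors and 2934 ± 473 in WT tumors (SD, n = 3 each), a difference of -0.52 (SE 0.17, limma adjusted p = 0.107). In the authors' deposited table the pp of Tlr2 in whole tumors was 0.9999, rank 40 of 12924 genes, and 1.11% of the genes tested exceeded 0.95.

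The partners of TLR2 ran the other way. Tlr1 read 325, 363 and 450 normalized counts in p110g-/- tumors, and 217, 268 and 269 in WT tumors. All 3 p110g-/- tumors lay above all 3 WT tumors. The means were 379 ± 64.1 in p110g-/- tumors and 251 ± 29.7 in WT tumors (SD, n = 3 each), a difference of 0.59 (SE 0.14, limma adjusted p = 0.06). Without p110g-/- tumor 1 the difference was 0.69 and limma's adjusted p was 0.0244. With any other single tumor left out it did not pass (0.46 to 0.64, limma adjusted p 0.114 to 0.165). The authors' deposited table gave Tlr1 a pp of 0.895 in whole tumors, and it gave the members other than Tlr2 and Tlr1 a pp of 0.0262 (Tlr6) or 0.

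Tlr6 read 235, 213 and 303 in p110g-/- tumors, and 163, 194 and 206 in WT tumors, again without overlap. Its difference was 0.40 (SE 0.16, limma adjusted p = 0.154). Tlr1 and Tlr6 are near-identical over part of their length: 454 stretches of 50 bases occur in transcripts of both, which is 14.8% of those of Tlr1 and 12.3% of those of Tlr6, and no other pair of members shares any. The sources used here do not say how the authors' counting treated such reads, so the separate values of Tlr1 and Tlr6 are uncertain to that extent. The Tlr6 to Tlr1 ratio was 0.587 to 0.723 in p110g-/- tumors and 0.724 to 0.766 in WT tumors.

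**Figure D3:**
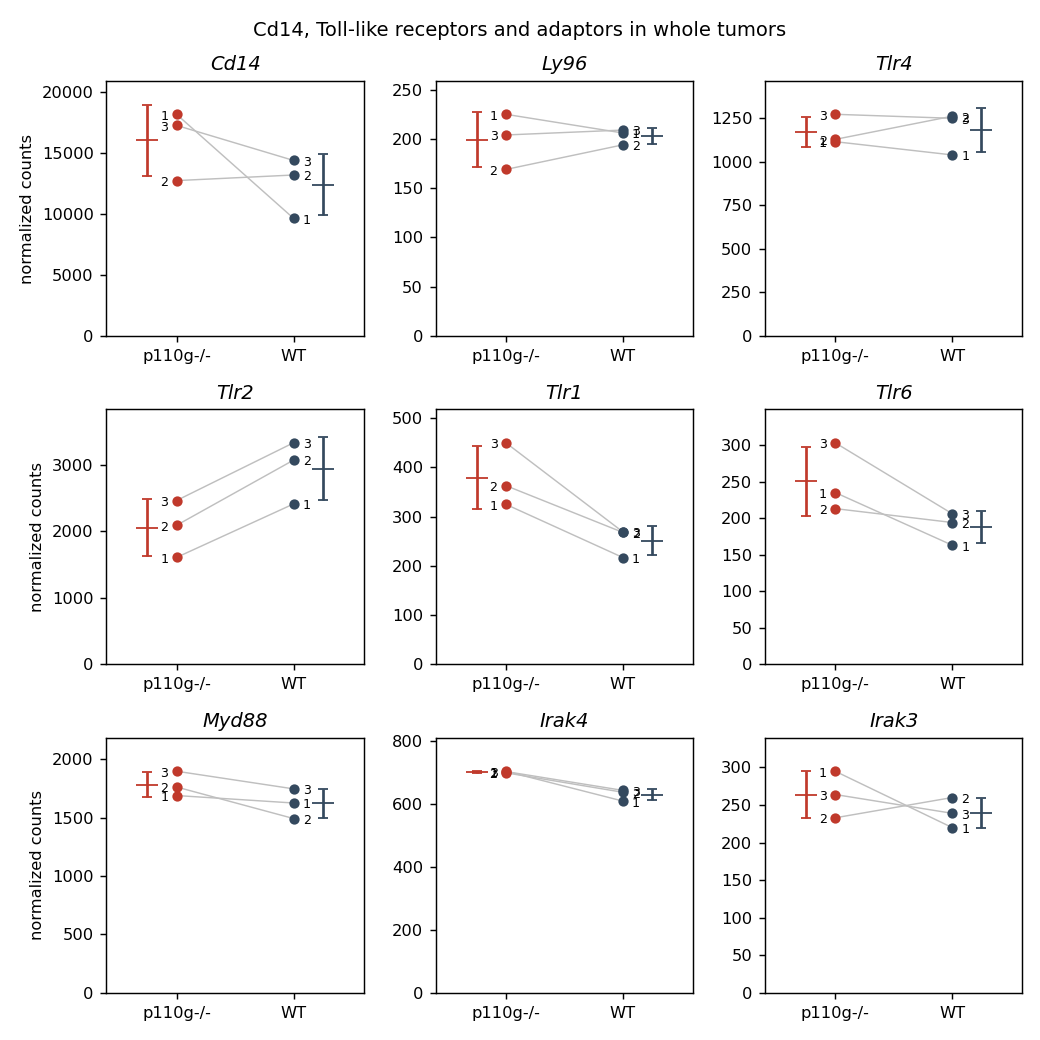
Normalized counts of the 9 genes in whole tumors, with p110g-/- on the left and WT on the right of each panel. Points are libraries labelled by number, grey lines join equal numbers (no pairing of these tumors is implied) and bars give the mean ± SD (n = 3 each). Tlr1, Tlr6 and Irak4 have all 3 p110g-/- points above the WT points, and the Tlr2 points of p110g-/- (1606 to 2460) lie mostly below those of WT (2409 to 3327).

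Tlr4 and Ly96 had differences close to 0 in whole tumors. Tlr4 read 1114, 1127 and 1271 in p110g-/- tumors, and 1038, 1260 and 1248 in WT tumors, a difference of -0.01 (SE 0.09, limma adjusted p = 0.955) whose 95% interval ran from -0.22 to 0.20. Ly96 read 225, 169 and 204 in p110g-/- tumors, and 206, 194 and 209 in WT tumors, a difference of -0.04 (SE 0.12, limma adjusted p = 0.886) with an interval from -0.32 to 0.25. The genotypes overlapped for each gene.

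Irak4 read 705, 700 and 704 in p110g-/- tumors, and 610, 638 and 644 in WT tumors. The p110g-/- tumors agreed to within 5 units and all lay above the WT tumors, with a difference of 0.16 (SE 0.06, limma adjusted p = 0.145). Myd88 read 1689, 1762 and 1897 in p110g-/- tumors, and 1625, 1492 and 1746 in WT tumors, overlapping, with a difference of 0.14 (SE 0.07, limma adjusted p = 0.27). Irak3 read 295, 233 and 264 in p110g-/- tumors, and 220, 260 and 239 in WT tumors, a difference of 0.14 (SE 0.12, limma adjusted p = 0.497). Tlr1, Tlr6 and Irak4 were thus 3 of 9 members without overlap, all higher in p110g-/-. Over all genes 31.0% did not overlap in whole tumors, and 15.7% did so in the higher direction, so this count is near the background. In the reference annotation 11.3% of the exon bases of Myd88 lie in exons of Acaa1a on the other strand, 7.87% of those of Irak4 in Twf1 and 5.22% of those of Irak3 in Tmbim4. The labels do not say whether counting used strand, so reads there cannot be assigned.

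**Figure D4:**
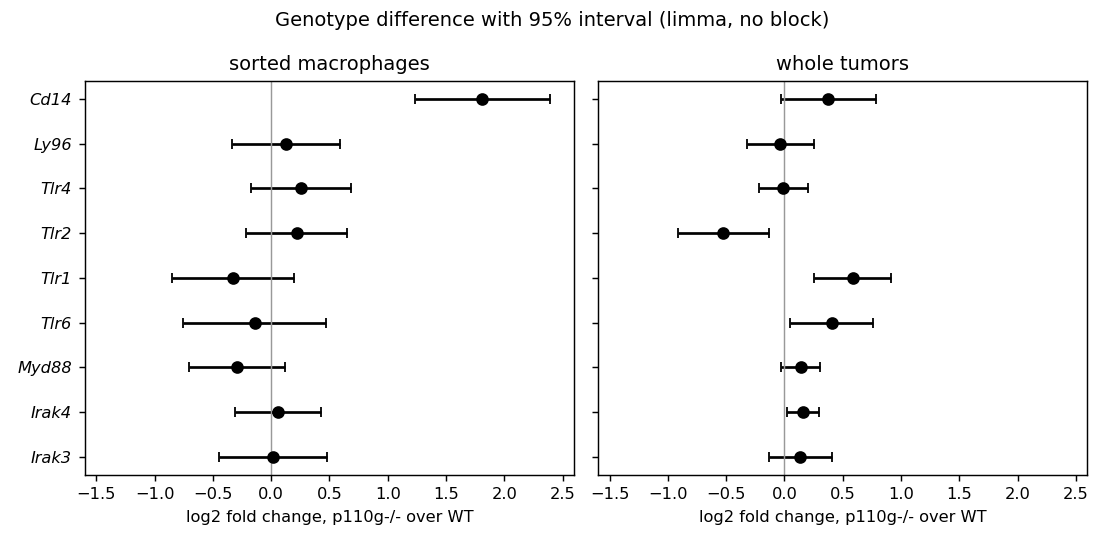
Genotype differences of the 9 genes as log2 fold change, p110g-/- over WT, with 95% intervals from limma without a block, in sorted macrophages (left, n = 4 each) and whole tumors (right, n = 3 each). Cd14 stands apart at 1.81 in sorted macrophages, and in whole tumors Tlr2 (-0.52) and Tlr1 (0.59) lie farthest from 0.

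The balance between Tlr2 and its partners was read within each tumor. The ratio of normalized counts of Tlr2 to Tlr1 was 4.94, 5.75 and 5.47 in p110g-/- tumors, and 11.1, 11.4 and 12.4 in WT tumors. The ratio of Tlr2 to Tlr6 was 6.83, 9.80 and 8.12 in p110g-/- tumors, and 14.8, 15.8 and 16.1 in WT tumors. Neither ratio overlapped between genotypes. This is not particular to Tlr2 among genes, since 79.3% of all genes had a lower ratio to Tlr1 in p110g-/- tumors without overlap, and 49.3% a lower ratio to Tlr6. Nor is it particular to Tlr1 and Tlr6, since 42.7% of genes had a higher ratio to Tlr2 in p110g-/- tumors without overlap. In the opposite directions, 1.23% of genes had a higher ratio to Tlr1 and 0.236% a lower ratio to Tlr2 without overlap. In TAM the Tlr2 to Tlr1 ratio was 3.79, 4.36, 9.51 and 9.54 in p110g-/- libraries 1 to 4, and 4.67, 4.44, 4.18 and 3.78 in WT libraries 1 to 4. There the p110g-/- libraries 3 and 4 were high and libraries 1 and 2 lay within the WT range.

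**Figure D5:**
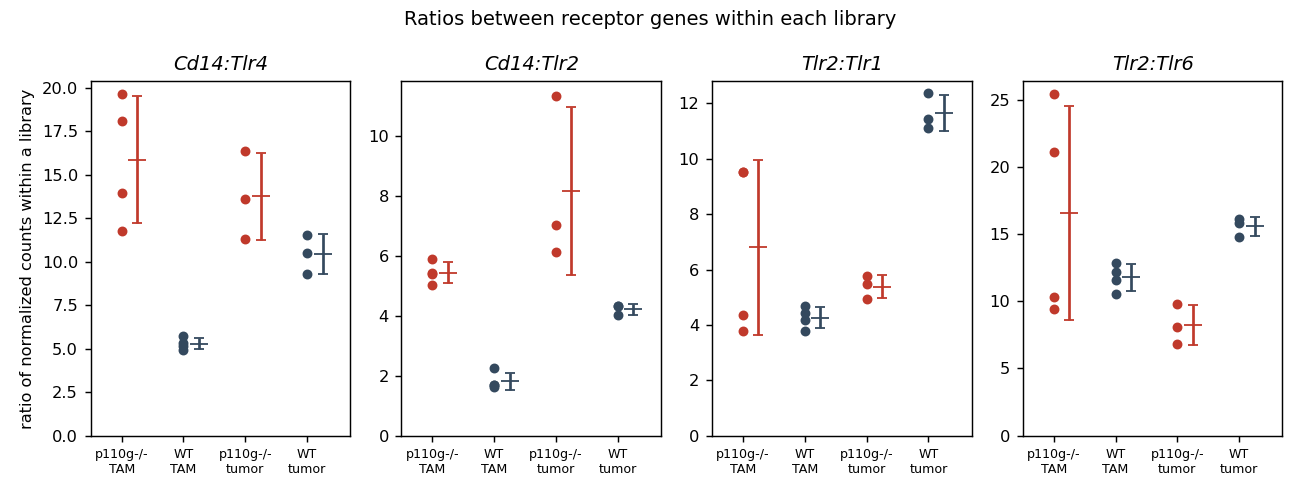
Ratios of normalized counts between receptor genes within each library, by group (p110g-/- TAM, WT TAM, p110g-/- tumor, WT tumor from left to right), with mean ± SD beside the points. Cd14 to Tlr4 is 11.8 to 19.6 in p110g-/- TAM and 4.95 to 5.71 in WT TAM, and Tlr2 to Tlr1 is 4.94 to 5.75 in p110g-/- tumors and 11.1 to 12.4 in WT tumors.

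Since a whole tumor mixes cell types, each member was also set against the mean log2 level of the 11 macrophage markers in the same tumor. That mean was 11.8, 11.9 and 12.3 in p110g-/- tumors, and 11.7, 11.9 and 12.1 in WT tumors. Relative to it, Tlr2 stood at -1.02 ± 0.10 in p110g-/- tumors and -0.38 ± 0.08 in WT tumors (SD, n = 3 each, log2 scale), and the genotypes no longer overlapped. A lower relative level without overlap was found for 4.41% of all genes. Tlr1 stood at -3.44 ± 0.03 in p110g-/- tumors and -3.91 ± 0.13 in WT tumors, and Tlr6 at -4.04 ± 0.16 in p110g-/- tumors and -4.33 ± 0.09 in WT tumors, both without overlap, as 4.58% of all genes did in the higher direction. Cd14 stood at 1.96 ± 0.38 in p110g-/- tumors and 1.69 ± 0.12 in WT tumors, with overlap.

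Other cell markers differed between the tumors. The 8 T cell markers summed to 20.7 to 27.1 CPM in p110g-/- tumors and 4.69 to 11.6 CPM in WT tumors. Limma called 5 of them higher, where 2.25% of all genes were called higher. The 9 neutrophil markers summed to 352 to 610 CPM in p110g-/- tumors and 319 to 485 CPM in WT tumors. The 6 endothelial markers summed to 51.2 to 60.3 CPM in p110g-/- tumors and 29.0 to 47.8 CPM in WT tumors. All 6 had positive differences, with a median of 0.585, and limma called 0 of them. The 3 carcinoma markers summed to 352 to 392.4 CPM in p110g-/- tumors and 506 to 535 CPM in WT tumors. Of these, 2 passed the filter on low values, and limma called 2 lower, where 2.1% of all genes were called lower. No listed marker was at 0 in all tumors of a genotype, and the part of these cells in the Tlr1, Tlr2 and Tlr6 values was not tested.

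Over the 6 whole tumors the genes nearest to Cd14 were B430306N03Rik, Thy1, Ifitm6, Entpd1 and Il7r, at distances of 0.06 to 0.09 on the centred log2 scale among 10793 genes. None of these 5 was among the 5 nearest in TAM. Tlr6 was the nearest member, at rank 53 and 0.16. The genes nearest to Tlr2 in whole tumors were Rhoh, Ppp1r35, Lsp1, Pkib and Crip1, at 0.07 to 0.12. Of these, only Lsp1, which encodes a leukocyte actin-binding protein, passed limma's threshold, lower in p110g-/- tumors by 0.51 on the log2 scale (limma adjusted p = 0.0489). The others had limma adjusted p-values of 0.0744 to 0.266. The call of Lsp1 was not examined with single tumors left out.

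The difference between the genotype effects was tested in a fit of all 14 libraries, in which the whole tumor effect was subtracted from the TAM effect. For Cd14 it was 1.44 (SE 0.36, limma adjusted p = 0.217). With the number as a block in the TAM, where alone same-numbered libraries passed the pairing check, limma's adjusted p was 0.0462 (SE 0.34). With a block in both tables it was 0.078, where 2.61% of genes were called. Without WT TAM library 1 and with no block it was 1.67 (limma adjusted p = 0.0456), and with any other single library left out limma's adjusted p was 0.151 to 0.597. For Tlr1 it was -0.92 (SE 0.32, limma adjusted p = 0.504), with 0.0389 under the block in TAM and 0.0328 under a block in both tables. Tlr2 gave 0.74 (SE 0.29, limma adjusted p = 0.596), Tlr6 -0.55 (SE 0.37, limma adjusted p = 0.982) and Myd88 -0.43 (SE 0.23, limma adjusted p = 0.874). The other 4 members lay between -0.12 and 0.27 with limma adjusted p-values of 0.999. Limma called 0 of 9 members without a block, where 0.14% of 12821 genes were called (18 genes, and 835 at an unadjusted p under 0.05), and 2 with the block in TAM, where 3.24% of genes were called.

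Levels between the sorted cells and the whole tumors were set side by side in CPM, as a description, since the tables were normalized separately. Cd14 averaged 1666 CPM in p110g-/- TAM and 605 in p110g-/- tumors, and 508 in WT TAM and 454 in WT tumors. In p110g-/- mice every TAM library lay above every tumor, at 2.75 times the tumor mean, while in WT mice TAM and tumors overlapped, at 1.12 times. The other 8 members were higher in TAM than in tumors without overlap in both genotypes. Their TAM to tumor ratios ran from 1.48 for Myd88 to 3.96 for Tlr2 in p110g-/- mice, and from 1.495 for Ly96 to 6.96 for Tlr1 in WT mice. The 11 macrophage markers had median ratios of 4.90 in p110g-/- mice and 5.43 in WT mice.

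In CPM per kilobase of exon, Cd14 was the most abundant member in every group, at 1015 in p110g-/- TAM, 310 in WT TAM, 368 in p110g-/- tumors and 276 in WT tumors. In TAM, Tlr2 followed at 102 in p110g-/- and 91.1 in WT, and Myd88 at 50.7 ± 15.1 in p110g-/- and 62.7 ± 7.72 in WT (SD, n = 4 each). Below them on this scale Tlr4 (19.5 in p110g-/- and 17.4 in WT), Ly96 (18.2 in p110g-/- and 17.5 in WT) and Tlr1 (16.5 in p110g-/- and 20.5 in WT) lay within each other's spread. So did Irak3 (10.2 in p110g-/- and 10.4 in WT) and Irak4 (10.1 in p110g-/- and 10.0 in WT). Tlr6 was the lowest at 5.72 in p110g-/- TAM and 6.45 in WT TAM. In whole tumors Myd88 at 34.3 ± 2.46 in p110g-/- and 30.2 ± 2.19 in WT, and Tlr2 at 25.7 ± 5.69 in p110g-/- and 35.6 ± 5.57 in WT (SD, n = 3 each), came next to Cd14. Tlr6 again had the lowest mean, at 2.57 ± 0.47 in p110g-/- tumors and 1.86 ± 0.21 in WT tumors. Irak3 came next, at 3.09 ± 0.29 in p110g-/- tumors and 2.72 ± 0.23 in WT tumors (SD, n = 3 each). In p110g-/- tumors Tlr6 and Irak3 lay within each other's spread. Exon lengths are of GENCODE M21 on GRCm38, not the authors' annotation.

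Genes around the receptors were read from 7 lists. Of 7 measured other Toll-like receptor genes, among them the endosomal nucleic acid receptors Tlr7, Tlr8 and Tlr9, limma called 0 in TAM with or without a block, and their median difference was -0.11, against -0.01 over all genes. In whole tumors all 7 differences were positive with a median of 0.47, against 0.01 over all genes, and limma called 0 of them. Tlr8, a sensor of single-stranded RNA in humans, read 390 ± 86.3 in p110g-/- tumors and 231 ± 56.0 in WT tumors (SD, n = 3 each), a difference of 0.76 (SE 0.20, limma adjusted p = 0.0708). Of the surface receptors, Tlr1 and Tlr6 were of this sign in whole tumors, and Tlr2 and Tlr4 were not.

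Among 10 measured accessory genes, Cd36, a scavenger receptor that assists TLR2 with TLR6, read 6079 ± 2298 in p110g-/- TAM and 2116 ± 1095 in WT TAM (SD, n = 4 each). The difference of 1.59 (SE 0.38) had a limma adjusted p of 0.307 without a block and 0.0101 with it, and no other gene of the list was called. Among 23 adaptor and proximal signalling genes, Irf7, the interferon regulatory factor that amplifies interferon genes, read 2120 ± 1006 in p110g-/- TAM and 8570 ± 2416 in WT TAM (SD, n = 4 each). Its difference of -2.08 (SE 0.31) had a limma adjusted p of 0.0683 without a block and 0.00105 with it, and the median of the list was -0.05. In whole tumors Tab1, a partner of the kinase TAK1, fell by 0.32 on the log2 scale (SE 0.06, limma adjusted p = 0.0396) as the only call in that list. There 0 accessory genes were called, and Cd36 differed by 0.69 (SE 0.16, limma adjusted p = 0.0566).

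Among 20 negative regulators, Dusp1, a phosphatase of stress kinases and also one of the 15 stress genes above, read 26697 ± 4134 in p110g-/- TAM and 13622 ± 5144 in WT TAM (SD, n = 4 each). Its difference was 1.04 (SE 0.26), with a limma adjusted p of 0.36 without a block and 0.0279 with it. Trafd1, an interferon-induced inhibitor of TRAF signalling, differed by -0.32 with 0.999 without a block and 0.0253 with it, both from limma. In whole tumors limma called 0 of the 20, and Trafd1 differed by 0.46 (SE 0.13, limma adjusted p = 0.0766), opposite in sign to TAM. The 10 genes of CD14-dependent TLR4 endocytosis had 0 calls in TAM and 0 in whole tumors without a block, with a median of -0.09 in TAM and 0.03 in whole tumors.

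The genes that TLR4 induces were split by branch. Of 21 measured inflammatory genes of the MyD88 branch, 16 had positive differences in TAM, with a median of 0.67 against -0.01 over all genes. Limma called 0 without a block and 3 higher with it, where 1.01% of all genes were called higher. Cxcl2, a neutrophil chemokine, read 16376 ± 5885 in p110g-/- TAM and 5391 ± 5056 in WT TAM (SD, n = 4 each), a difference of 1.91 (SE 0.52, limma adjusted p = 0.417, and 0.0172 with the block). Cxcl1, of the same family, differed by 1.55 (SE 0.51, limma adjusted p = 0.595, and 0.047 with the block). The stress genes above were higher in the same libraries, and their part in these values was not tested. In whole tumors the list had a median of -0.05. There Nos2, the inducible nitric oxide synthase, rose, at 1837 ± 524 in p110g-/- tumors and 705 ± 102 in WT tumors (difference 1.35, SE 0.19, limma adjusted p = 0.0186). Il1a, the interleukin 1 alpha gene, fell, at 337 ± 131 in p110g-/- tumors and 1074 ± 300 in WT tumors (difference -1.70, SE 0.29, limma adjusted p = 0.0282).

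Of 12 measured interferon genes of the TRIF branch, the median difference in TAM was -1.81, against -0.01 over all genes. Limma called 1 lower without a block and 10 lower with it, where 0.0401% and 1.49% of all genes were called lower. Ifi44, an interferon-induced gene, fell, at 38.5 ± 12.7 in p110g-/- TAM and 269 ± 42.1 in WT TAM (SD, n = 4 each; difference -2.81, SE 0.25, limma adjusted p = 0.00773). Its effect in TAM minus that in whole tumors was -3.50 (SE 0.38, limma adjusted p = 0.00875). In whole tumors the median of the list was 0.26, and Cxcl10, a chemokine for activated T cells, rose, at 1352 ± 284 in p110g-/- tumors and 533 ± 153 in WT tumors (difference 1.36, SE 0.24, limma adjusted p = 0.0286). As background, many stimuli other than TLR4 ligands induce the genes of both branches. With single tumors left out in turn, limma's call was lost in 5 of 6 fits for Tab1 and for Il1a, in 4 for Nos2 and in 3 for Cxcl10, and the adjusted p reached 0.136, 0.1, 0.0625 and 0.104 for these genes. Tab1 and Il1a lost the call without any single tumor but p110g-/- tumor 1, Nos2 without p110g-/- tumor 2 or 3 or WT tumor 1 or 2, and Cxcl10 without p110g-/- tumor 2 or 3 or WT tumor 2. The call of Ifi44 in TAM was lost without WT TAM library 2, at a limma adjusted p of 0.074. The call of its difference between TAM and whole tumors was lost without p110g-/- tumor 2 (limma adjusted p = 0.0555) or WT tumor 2 (limma adjusted p = 0.0566).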

How the data were processed

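RNA of 14 libraries was measured by sequencing: 4 p110g-/- and 4 WT TAM, 3 p110g-/- and 3 WT whole tumors. Tools named per the submitters' processing notes are Bowtie2 and DESeq, with mm9 as the build; the gene counter, annotation and versions: not given in the sources used here. For each tissue the authors deposited a table whose values are a score, namely gene counts scaled per library and rounded, here named normalized counts. The scaling shows in the values: 6 libraries, all TAM, skip whole numbers between 1 and 60. The authors' deposited tables also hold pp, a score from 0 to 1 of unstated meaning. The largest scaling makes a read worth up to 1.94 units.

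A count model had been named for raw counts only, so limma 3.58.1 (R 4.3.3) with a mean-dependent prior was used on log2(normalized count + 1), over genes with at least 10 in at least 4 (TAM) or 3 (whole tumor and difference of effects) libraries, within each table. This scale understates the change of low genes. P-values are two-sided and adjusted by Benjamini-Hochberg over all genes tested, at a threshold of 0.05, and intervals are at 95%. The scripts were tested on simulated data. In the pairing check, deviations of same-numbered TAM libraries correlated over 12475 genes at 0.847, 0.472, 0.808 and 0.702, all above 0.1, so a block by number was used. Libraries 3 and 4 also correlated across numbers, at 0.777 (p110g-/- 3 with WT 4) and 0.704 (p110g-/- 4 with WT 3). The check therefore did not tell number 3 from number 4. The labels do not say what a number marks. Whole tumors gave 0.0947, 0.0763 and 0.178, and are not treated as paired.

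Ratios within a library, levels in counts per 1000000 (CPM) of the deposited totals, and distances between profiles are descriptions without a test. Named were all 9 members, the 5 genes nearest to Cd14 and to Tlr2, and Pik3cg. Per list, the rule took up to 4 genes called with a mean of at least 100, else up to 2 called with the block. Some genes that it took only with the block are not described. These are Unc93b1 and Pik3cd in whole tumors, and Irf7, Ikbke, Trafd1 and Pik3cd in the difference of effects. Values of other genes given beside the named ones (Klrb1b, Nt5e and Lsp1 among the nearest) were described after they were seen. Members and lists were chosen with earlier results of these data known. Alternatives covered pseudocount, filter, scaling, weights, prior, block and left-out libraries. Python 3.11.15, pandas 2.3.3 and numpy 2.4.6 were used for descriptions. Dates in 21 symbols were renamed by identifier.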

Additional observations from a re-analysis of the deposited data

Results flagged for a closer look

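The genotype effect on Cd14 was larger in sorted macrophages than in whole tumors by 1.44 on the log2 scale (SE 0.36). It was picked out because limma's test of the difference between the effects gave an adjusted p of 0.0462 with the replicate number as a block in the TAM. That setting was chosen after the pairing check had been seen, and the test did not pass with a block in both tables (adjusted p = 0.078) or without a block (adjusted p = 0.217). The Cd14 difference was 1.81 in TAM and 0.38 in whole tumors.

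The effect on Tlr1 was lower in macrophages than in whole tumors by the same test, at -0.92 (SE 0.32), with a limma adjusted p of 0.0389 under that block and 0.504 without it. The Tlr1 difference was -0.33 in TAM and 0.59 in whole tumors, and neither passed limma's test on its own without a block. The reads that Tlr1 shares with Tlr6 touch this value, and their part in it was not tested.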

How the results depend on the processing

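Settings were changed singly, except for pairs of choices named here, and the cause of each change was not tested unless it follows from fewer libraries. For Cd14 in TAM every alternative kept the direction, between 1.28 and 2.35. Besides the block (1.81), it passed limma's threshold with equal column totals (1.76, adjusted p = 0.0481), sample quality weights (2.22), all 14 libraries in a single fit (1.81), numbers 3 and 4 only (2.35, with or without a block) and the block without number 1 (2.08). Without number 2, 3 or 4 the blocked adjusted p from limma was 0.0846, 0.0624 and 0.0557. Leaving out single libraries gave 1.69 to 2.05 (limma adjusted p 0.00815 without WT 1, up to 0.253). Members called in TAM were 1 with the block, equal totals or the single fit, 3 with weights, 5 in numbers 3 and 4 with or without the block, 3 with the block without number 1, and 0 to 1 with a library left out. Genes called in TAM (14) were 312 with the block, 999 with weights, 83 in the single fit, 0 in numbers 1 and 2, 1428 and, blocked, 1384 in numbers 3 and 4, 611, 78, 91 and 98 with the block without numbers 1 to 4, and 3 to 40 with a library left out (40 without WT 1, 39 without p110g-/- 1).

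In whole tumors the numbers do not pair the libraries by the check. A replicate block there called 2 members, beside 5.97% of genes, Tlr1 (0.59, limma adjusted p = 0.0314) and Tlr2 (-0.52, limma adjusted p = 0.0113). Weights also called 2, beside 2308 of all genes, with Tlr2 at -0.47. The block without number 1 called 2, beside 1932 of all genes, with Tlr2 at -0.49. Single libraries left out gave -0.67 to -0.36 for Tlr2 and 0 to 1 members. Genes called (553) were 2308 with weights, 131 with a constant prior, 15 in the single fit, 1932, 36 and 39 with the block without numbers 1 to 3, and 29 to 2001 with a library left out (2001 without p110g-/- 1). For the difference of effects, genes called (18) were 335 with a block, 416 with the block in TAM only, 1892 with weights and 0 to 95 with a library left out (95 without TAM p110g-/- 1). Members called were 1, 2, 5 and 0 to 1 in the same order, and Cd14 gave 1.44 with the block in TAM, 2.00 with weights, and 1.28 to 1.67 with a library left out (limma adjusted p = 0.0456 without TAM WT 1).

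Small differences changed sign. In TAM, Irak3 gave -0.04 (equal totals), -0.03 (numbers 1 and 2, with or without the block), -0.034 (block without number 4) and -0.125 to 0.16 with a library left out, and Tlr2 -0.228 (numbers 1 and 2, with or without the block). With a library left out Irak4 spanned -0.067 to 0.172 and Tlr6 -0.297 to 0.038. In whole tumors Tlr4 gave 0.034 (equal totals), 0.064 (block without number 2) and -0.102 to 0.038 with a library left out, Ly96 0.01, 0.046 and -0.127 to 0.078 under the same settings, and Irak3 -0.007 (block without number 1). In the difference of effects Irak3 gave 0.067 (weights) and -0.26 to 0.025, and Irak4 -0.223 to 0.016, with a library left out. None of these passed limma's threshold. The weight estimation did not reach its convergence tolerance. The block changed no other member's call in TAM. Counting error was largest for Tlr6 and Ly96 in whole tumors, at up to 7.83% of a value, and Ly96 reached 6.96% in p110g-/- TAM library 4.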
